A study of Rattus norvegicus with 6 samples.

Results

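The kinin system and the surface peptidases that act beside it were examined in bone marrow mesenchymal stem cells (BMSCs) of the rat. The set had 8 genes out of 33508 rows of the deposited gene count table, matched by gene symbol. Kng1 encodes the kininogen, Bdkrb1 and Bdkrb2 encode the kinin receptors, and Mme, Anpep, Ace, Enpep and Dpp4 encode peptidases anchored in the plasma membrane. The set was put together because Kng1 and Mme were among the genes with the largest falls in these libraries, so that these 2 were selected on their fold changes, which are given as a description without a test. The other 6 genes were joined to them by function, with results of the same comparison already known.

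The cells were grown from long-bone marrow of male Sprague–Dawley rats, 2 months old, and carried either a lentivirus for overexpression of FNDC5, the precursor of the secreted peptide irisin (BMSCs-OE-FNDC5, here FNDC5 cells), or a blank lentivirus as vector control (BMSCs-OE-NC, here control cells). By the study's methods the plasmid vectors carried green fluorescent protein or luciferase as a tag, and the promoter that drove FNDC5 is not given in the sources used here. Both groups were under hypoxia with serum and glucose deprivation (H/SD) for 24 h at 1% O2, so that no library of cells in normal oxygen enters the comparison. Each group had 3 RNA-seq libraries. The labels call them biological replicates but do not say whether they came from separate rats, cultures or transductions, so that the p-values describe the spread between these libraries, which may be technical.

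Kinins are short vasoactive peptides that kallikreins and related proteases cut out of kininogen. They act on the B2 receptor, which many cells carry all the time, and after loss of their last residue on the B1 receptor, which tissues make after injury and inflammation. Peptidases on the cell surface, among them neprilysin, angiotensin-converting enzyme and aminopeptidases, end the action of kinins, angiotensins, enkephalins and other peptides next to the membrane, and several of them are also used as surface markers of stromal and lymphoid cells.

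Library depth was alike in the 2 groups, with 16640635 to 17229490 counts for FNDC5 cells and 17430287 to 17965722 for control cells. A floor of 3 counts corresponded to 0.147 to 0.205 CPM (counts scaled to a common library size, here with the trimmed mean of M values, TMM), and the intervals below cover counting error only. Fndc5 itself followed the labels, with 64195 to 65589 counts in libraries of FNDC5 cells against 17 to 25 in the others. The TMM factors were above 1 for control cells (1.13 to 1.14) and below 1 for FNDC5 cells (0.877 to 0.882). Most genes differed between the groups: at an adjusted p under 0.05 (edgeR's quasi-likelihood test with Benjamini-Hochberg adjustment), 38.8% of the 12104 genes tested were lower and 36.9% were higher in FNDC5 cells, 75.7% in all. A positive log2 fold change means a higher level in FNDC5 cells, and the median over all genes tested was -0.04.

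Of the 8 genes, 7 passed the filter on low counts and Dpp4 did not. Kng1, Mme, Enpep, Ace and Anpep were lower in FNDC5 cells, and Bdkrb1 and Bdkrb2 were higher. In all 7 genes the 3 libraries of one group lay apart from the 3 of the other, as they did for 78.3% of all genes tested (40.4% lower and 37.9% higher). With an absolute log2 fold change over 1 as a further condition, 5 genes were lower and Bdkrb1 alone was higher, beside 17.5% and 9.84% of all genes. Kng1 and Mme are in these counts by choice, and 5 genes besides them are too few to be read against such a background.

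The promoters of Kng1, Mme, Ace and Bdkrb1 are shown because they span the roles in the set, a precursor, peptidases and a receptor, and both directions of change. The sequences are from RefSeq on build GRCr8 and run from 250 bases before to 50 bases after the annotated start, 5′ to 3′ on the strand of the gene. Capitals mark the GC box, searched as GGGCGG and, for the other strand, CCGCCC, the element that Sp1-family transcription factors bind. Overlapping matches were counted.
Kng1, chr11:91340099-91340398, minus strand: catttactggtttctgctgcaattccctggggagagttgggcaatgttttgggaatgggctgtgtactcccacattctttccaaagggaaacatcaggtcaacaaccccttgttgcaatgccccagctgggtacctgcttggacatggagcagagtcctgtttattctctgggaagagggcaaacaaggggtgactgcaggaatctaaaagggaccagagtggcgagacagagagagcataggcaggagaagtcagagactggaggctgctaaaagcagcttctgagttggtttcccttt
Mme, chr2:149872247-149872546, plus strand: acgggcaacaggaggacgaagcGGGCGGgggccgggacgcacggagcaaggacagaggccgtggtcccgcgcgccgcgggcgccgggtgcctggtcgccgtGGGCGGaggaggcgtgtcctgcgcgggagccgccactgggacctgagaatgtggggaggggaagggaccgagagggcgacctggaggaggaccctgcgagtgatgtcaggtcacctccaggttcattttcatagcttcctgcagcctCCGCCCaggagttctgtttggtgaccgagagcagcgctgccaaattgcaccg
Ace, chr10:91409879-91410178, plus strand: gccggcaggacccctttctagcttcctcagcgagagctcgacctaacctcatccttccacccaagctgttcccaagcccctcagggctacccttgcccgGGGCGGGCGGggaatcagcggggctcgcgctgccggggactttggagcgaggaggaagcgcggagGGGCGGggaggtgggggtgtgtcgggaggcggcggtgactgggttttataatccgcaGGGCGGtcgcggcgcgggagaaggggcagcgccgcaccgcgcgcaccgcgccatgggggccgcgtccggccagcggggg
Bdkrb1, chr6:130275436-130275735, plus strand: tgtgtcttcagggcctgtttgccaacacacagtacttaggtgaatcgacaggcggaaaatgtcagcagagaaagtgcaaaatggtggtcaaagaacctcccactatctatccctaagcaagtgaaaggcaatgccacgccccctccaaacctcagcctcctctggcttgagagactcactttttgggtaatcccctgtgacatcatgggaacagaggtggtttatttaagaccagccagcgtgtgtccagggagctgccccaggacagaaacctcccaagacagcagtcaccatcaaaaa

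A GC box was present in 2 of the 7 promoters with a sequence, Mme with 3 matches and Ace with 4, a pair of which overlap. The promoters of Kng1, Anpep, Enpep, Dpp4 and Bdkrb1 held 0 matches in this window, and 33.1% of all 33469 rat promoters in the table held at least 1. Bdkrb2 had no entry. The core of the hypoxia response element, searched as ACGTG and CACGT on either strand, was in 0 of the 7 promoters and in 19.3% of all promoters. The GC content was 68.7% in the Mme promoter and 72.3% in the Ace promoter, against 50.7% in those of Kng1 and Bdkrb1 and a median of 51.7% over all promoters. These matches describe the letters of a short window and do not show that a factor was bound there.

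Kng1 encodes kininogen, the precursor from which bradykinin is released and an inhibitor of cysteine proteases. Its counts were 1024, 904 and 930 in control cells and 21, 19 and 22 in FNDC5 cells. Every library with FNDC5 was below every control library, and the libraries within a group were close to each other. After TMM scaling the mean level of Kng1 was 47.4 ± 2.66 CPM in control cells and 1.38 ± 0.0811 CPM in FNDC5 cells (SD, n = 3 each). Its log2 fold change was -5.09, a 34.2-fold lower level, and was the 8th lowest of the 12104 genes tested. The pooled counts gave a ratio of 34.4 with an exact 95% counting interval of 26.7 to 44.9. The residual level rested on 62 counts over 3 libraries, which gave 1.38 CPM with an exact 95% Poisson interval of 1.06 to 1.77, so that Kng1 was still above the floor. In the deposited table Kng1 (ENSRNOG00000030387) lay on the minus strand of chromosome 11 from 81421676 to 81444621. The table names no genome build, so its positions are not on the scale of the promoter coordinates above.

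**Figure D1:**
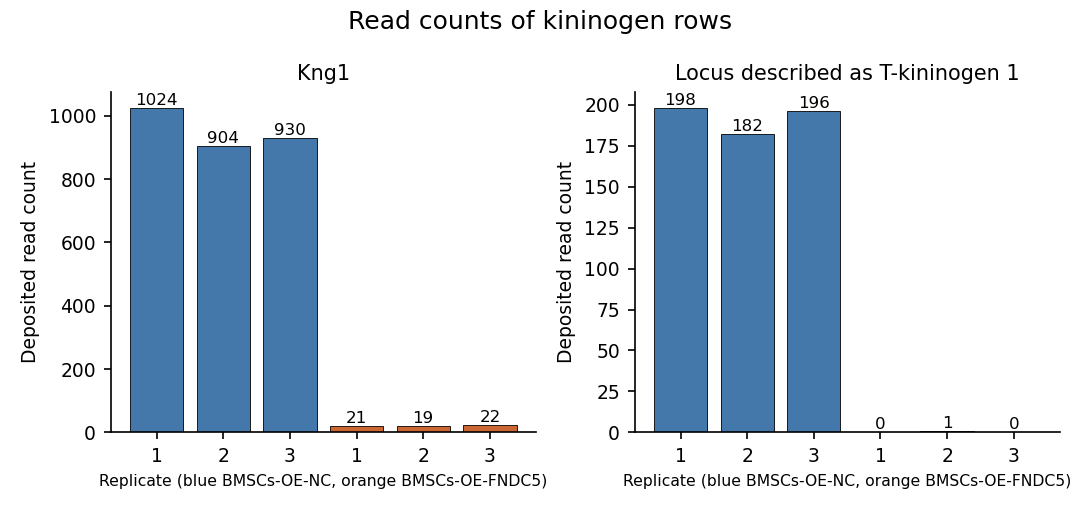
Deposited read counts of Kng1 (left) and of the locus described as T-kininogen 1 (right), with 1 bar per library on linear axes that start at 0, blue for control cells and orange for FNDC5 cells. Kng1 had 904 to 1024 counts in the control libraries and 19 to 22 in the others, and the T-kininogen locus had 182 to 198 and 0 or 1.

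The rat, unlike most mammals, also has T-kininogens, close relatives of Kng1 that are known as acute-phase proteins. A pair of rows without a gene symbol on the same chromosome carried a description as T-kininogen by similarity. They are no members of the set and were picked out after their values had been seen. The row described as T-kininogen 1, from 81509185 to 81516762 on the plus strand and 64564 bases from the end of Kng1, had 198, 182 and 196 counts in control cells and 0, 1 and 0 counts in FNDC5 cells. Its level was 9.57 ± 0.438 CPM (SD, n = 3) in control cells. Over all libraries the counts were 576 against 1, a ratio of 429 with an exact 95% counting interval of 76.7 to 16985, and its fitted log2 fold change was the lowest of all 12104 genes tested. The row described as T-kininogen 2 had 5 counts in 1 control library and 0 in the other 5 libraries. Kininogen genes share long stretches of sequence, and how reads with several matches were counted is not given in the sources used here. Reads may therefore have been split between these rows, and the level of each is uncertain in that respect.

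Kinin formation was represented by a list of 25 genes for kallikreins, contact factors, plasminogen activators, the cell-surface proteins on which contact factors assemble, and inhibitors. The listed proteases that classically release kinins were not detected where a row matched their symbol. Klkb1 (plasma kallikrein), F12 (factor XII), F11 and Plg (plasminogen) had 0 counts in every library, as had the tissue kallikreins Klk1c2, Klk1c9, Klk1c10 and Klk1c12, which allows at most 0.205 CPM in a library. Klk1, another tissue kallikrein, was not matched by its symbol, so that its level is not known. Of 10 listed genes with a count, 7 were tested, 4 of which were higher and 3 lower. Over all genes tested, 36.9% were higher and 38.8% lower, and the calls in this list and those below stand beside these shares. Serping1, the C1 inhibitor that blocks plasma kallikrein and factor XII, fell from 293 ± 9.15 CPM to 75.1 ± 3.52 CPM (SD, n = 3 each), which is -1.96 on the log2 scale (standard error 0.04, adjusted p = 1.00e-11, edgeR).

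The plasminogen activators moved apart. Plat, the tissue-type activator, fell from 263 ± 12.1 to 85.5 ± 6.28 CPM (log2 fold change -1.62), whereas Plau, the urokinase-type activator, rose from 9.51 ± 1.06 to 18.3 ± 1.68 CPM (0.94). Plaur, the urokinase receptor, rose from 242 to 472 CPM (0.97), and C1qbp, which binds high-molecular-weight kininogen on the cell surface, rose from 169 to 238 CPM (0.49). Prcp, a carboxypeptidase that can activate plasma prekallikrein, was at 44.8 and 59.6 CPM (0.41, adjusted p = 2.91e-05, edgeR), a difference that was no longer called when libraries were scaled by their size only (0.04, adjusted p = 0.504). Hsp90aa1, a chaperone that can do the same, varied within groups, from 4.52 to 19.4 CPM in control cells and from 1.26 to 3.68 CPM in FNDC5 cells, which gave -2.46 on the log2 scale (standard error 0.50, adjusted p = 9.48e-04, edgeR). Krt1 and Serpina1 were at means of 0.045 to 0.083 CPM in both groups. Serpinc1 was at 0.398 CPM in control cells and 0.023 CPM in FNDC5 cells, from 24 and 1 counts in all. Krt1, Serpina1 and Serpinc1 were not tested.

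Bdkrb1 encodes the B1 receptor, which responds to kinins that have lost their last arginine. Its counts were 622, 543 and 506 in control cells and 1239, 1314 and 1342 in FNDC5 cells. All libraries with FNDC5 were above all control libraries. The level rose from 27.7 ± 2.56 to 86.8 ± 4.23 CPM (SD, n = 3 each), or 1.65 on the log2 scale (standard error 0.07, adjusted p = 1.50e-09, edgeR). This 3.13-fold rise was the 289th highest of all genes tested.

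Bdkrb2, the gene of the B2 receptor for intact bradykinin, had far fewer reads. Its counts were 118, 128 and 111 in control cells and 155, 173 and 149 in FNDC5 cells. Its level rose from 5.93 ± 0.402 CPM to 10.6 ± 1.02 CPM (SD, n = 3 each), without overlap between the groups (log2 fold change 0.84, standard error 0.13, adjusted p = 1.28e-04, edgeR). The size of this difference depended on the scaling more than that of Bdkrb1. The log2 fold change of Bdkrb2 was 0.47 with library size only and 1.38 after each library's trend of counts with gene length had been removed, the lowest and highest of all alternatives.

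The receptor genes are neighbours on the plus strand of chromosome 6, Bdkrb2 from 129399468 to 129429676 and Bdkrb1 from 129438158 to 129440574, 8482 bases apart. Per length, in FPKM (fragments scaled to gene length and to a constant per library), Bdkrb1 was the more abundant in all 6 libraries. The ratio of Bdkrb1 to Bdkrb2 FPKM was 16.6, 13.3 and 14.3 in control cells and 25.1, 23.9 and 28.3 in FNDC5 cells. The log2 ratio was 3.88 ± 0.16 (SD, n = 3) in control cells and 4.68 ± 0.13 (SD, n = 3) in FNDC5 cells, a difference of 0.81. Bdkrb1 is the shorter gene (1312 against 4127 bases), and with the length trend removed the fitted log2 fold changes of the pair differed by 0.022, so that the shift in the ratio was not seen in that fit. In the deposited FPKM the groups did not overlap, and an exact permutation test (two-sided) gave p = 0.1, the smallest value that 3 libraries against 3 can give, so that this test cannot pass 0.05.

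**Figure D2:**
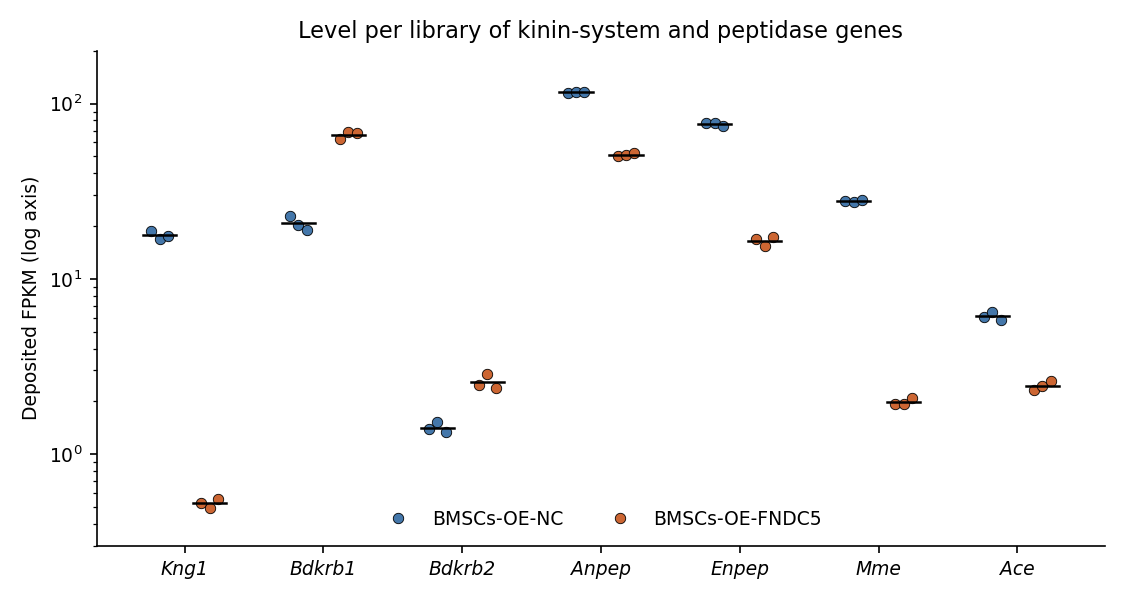
Deposited FPKM of the 7 genes with a tested count, on a log axis, with 1 point per library, blue for control cells and orange for FNDC5 cells, and a black line at the mean of each group. Bdkrb1 and Bdkrb2 are higher and the other 5 genes lower in FNDC5 cells, without overlap of the groups in any of them. Dpp4 is left out because it had 1 count in all.

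Mme encodes neprilysin, also known as CD10, a metallopeptidase that cleaves bradykinin, enkephalins, natriuretic peptides and endothelin. Its counts were 1823, 1769 and 1809 in control cells and 93, 89 and 100 in FNDC5 cells. The libraries of each group lay within a narrow range, and the groups were far apart. The mean level was 89.7 ± 1.61 CPM in control cells and 6.28 ± 0.299 CPM in FNDC5 cells (SD, n = 3 each). The log2 fold change of Mme was -3.83, which is 14.3-fold lower and the 26th lowest of all genes tested. Pooled counts gave a ratio of 14.3 with an exact 95% counting interval of 12.7 to 16.1. In the deposited table Mme (ENSRNOG00000009514) lay on the plus strand of chromosome 2 from 153803349 to 153880738.

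Enpep encodes aminopeptidase A, which removes the first residue of angiotensin II. Its counts were 6078, 5961 and 5675 in control cells and 971, 853 and 992 in FNDC5 cells. The level fell from 294 ± 6.50 to 62.7 ± 3.99 CPM (SD, n = 3 each), or -2.23 on the log2 scale (standard error 0.04, adjusted p = 7.62e-12, edgeR). After Mme, this was the largest fall among the peptidases of the set, 4.69-fold, under edgeR with TMM. Enpep was on the minus strand of chromosome 2 from 233667254 to 233743866.

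Anpep encodes aminopeptidase N, or CD13, a broad aminopeptidase that stromal cells of the marrow carry on their surface. It was the most abundant of the set by FPKM in the control libraries. Its counts were 9179, 9151 and 9002 in control cells and 2934, 2856 and 3016 in FNDC5 cells. The level was 454 ± 2.66 CPM in control cells and 196 ± 3.12 CPM in FNDC5 cells (SD, n = 3 each), which is -1.21 on the log2 scale (standard error 0.03, adjusted p = 1.47e-11, edgeR). With the length trend removed this became -0.72, still called at an adjusted p of 5.75e-10 from edgeR but below the fold threshold.

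Ace encodes angiotensin-converting enzyme, which makes angiotensin II and inactivates bradykinin. Its counts were 470, 493 and 443 in control cells and 132, 134 and 148 in FNDC5 cells. The level fell from 23.3 ± 1.12 to 9.22 ± 0.542 CPM (SD, n = 3 each), without overlap between the groups (log2 fold change -1.34, standard error 0.10, adjusted p = 1.86e-07, edgeR). With the length trend removed the log2 fold change was -0.87. Dpp4, the gene of the dipeptidyl peptidase CD26, had 0 counts in all control libraries and 0, 1 and 0 counts in FNDC5 cells. Its pooled level was at most 0.0613 CPM in control cells and 0.124 CPM in FNDC5 cells by the upper bound of the exact 95% Poisson interval, and a difference was not detectable at this depth.

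The order of the genes by FPKM changed between the groups. In control cells it ran from Anpep (116 FPKM) through Enpep (76.1), Mme (27.8), Bdkrb1 (20.8), Kng1 (17.7) and Ace (6.10) to Bdkrb2 (1.41) and Dpp4, and the ranges of neighbours did not overlap. In FNDC5 cells Bdkrb1 came first (66.2 FPKM), before Anpep (51.0), Enpep (16.5), Bdkrb2 (2.58), Ace (2.45), Mme (1.98), Kng1 (0.525) and Dpp4. There the ranges of Bdkrb2 and Ace overlapped, so that these neighbours could not be ordered. Mme went from the third place to the sixth and Kng1 from the fifth to the seventh. These genes differ in length, and FPKM do not remove the length trend. With that trend removed, the log2 fold change was 1.40 for Bdkrb1 (1.65 under edgeR with TMM) and -0.72 for Anpep (-1.21). The order in FNDC5 cells was not worked out under that fit.

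The summed FPKM of the membrane peptidases Anpep, Enpep, Mme, Ace and Dpp4 was 226 ± 1.92 (SD, n = 3) in control cells and 71.9 ± 1.88 (SD, n = 3) in FNDC5 cells. The make-up of this sum shifted as well. Anpep made up 51.3% in control cells and 70.9% in FNDC5 cells, while the share of Enpep went from 33.7% to 22.9%. The share of Mme went from 12.3% to 2.76%, and that of Ace from 2.70% to 3.41%. These are shares of transcript per length and not of enzyme. With the length trend removed, the falls were smaller. The log2 fold changes were then -0.72 for Anpep, -1.75 for Enpep, -3.46 for Mme and -0.87 for Ace. The sum and the shares were not worked out under that fit.

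**Figure D3:**
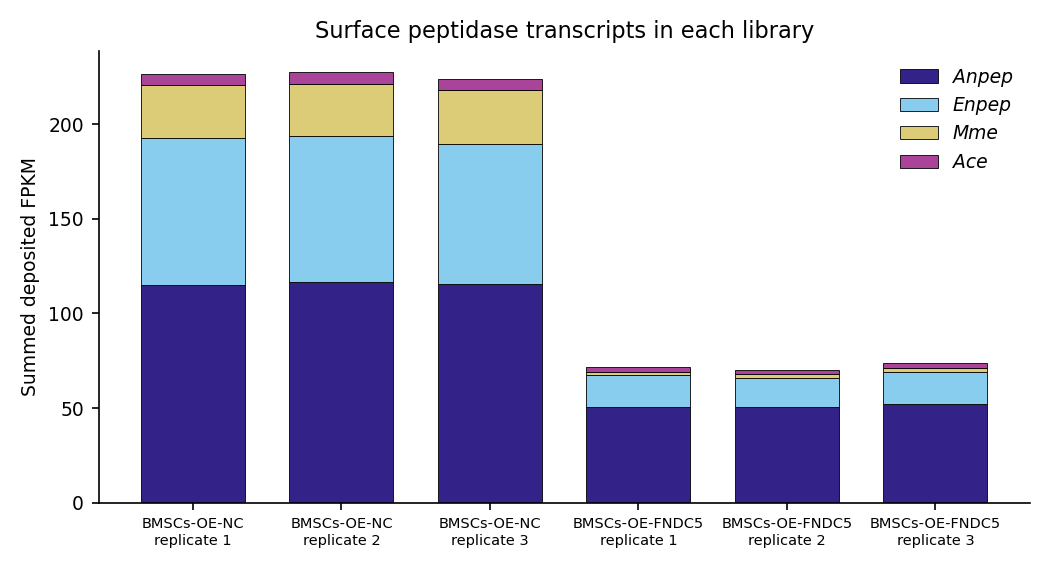
Summed deposited FPKM of the membrane peptidases in each library, stacked by gene on a linear axis that starts at 0. The sum is 224 to 227 FPKM in the 3 control cells libraries and 70.3 to 74.0 FPKM in the 3 FNDC5 cells libraries, with Mme nearly gone from the stack in the latter.

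Other peptidases listed for cleaving kinins were 17 genes, of which 12 had a count and 10 were tested. Cleavage of kinins by each listed gene's product, that of Fap included, was not checked here. Of these, 7 were lower, 2 were higher and 1 was not called, with a median log2 fold change of -0.28. Cpe, carboxypeptidase E of the secretory pathway, fell from 349 to 92.0 CPM (log2 fold change -1.92), Fap, the fibroblast activation protein, fell to 12.3 CPM (-2.02), and Cpd, carboxypeptidase D, fell from 41.1 CPM by 1.66 on the log2 scale, or by 0.99 with the length trend removed. Thop1, a cytosolic endopeptidase that cleaves bradykinin, rose from 48.7 to 108 CPM (1.14), and Xpnpep1, a cytosolic aminopeptidase P, rose from 177 to 249 CPM (0.49). The split between directions depended on gene length: with the length trend removed, 5 were higher and 3 lower. The plasma carboxypeptidase subunits Cpn1 and Cpn2 had 0 counts in every library.

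A further list of 32 genes, mostly peptidases of the cell surface or of peptide hormones, gave 15 tested genes. Of these, 10 were lower, 4 higher and 1 not called, with a median log2 fold change of -0.16. These counts include surface enzymes that are not peptidases, Nt5e among the lower genes (-1.31) and Enpp1 among the higher. Lvrn, or aminopeptidase Q, fell from 18.8 ± 1.75 to 1.13 ± 0.251 CPM (SD, n = 3 each), which is -4.04 on the log2 scale (standard error 0.17, adjusted p = 2.37e-09, edgeR). Erap1, which trims peptides in the endoplasmic reticulum, fell from 51.4 to 17.8 CPM (-1.53, or -0.87 with the length trend removed), and the cytosolic dipeptidyl peptidase Dpp8 fell from 50.2 to 17.9 CPM (-1.49). Enpp1, a surface pyrophosphatase in the same list, rose to 47.0 CPM in FNDC5 cells (2.09). The arginyl aminopeptidase Rnpep rose from 32.6 to 48.6 CPM (0.58), and its relative Rnpepl1 rose to 86.8 CPM (0.80).

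Signalling behind the kinin receptors runs through G proteins, phospholipase C, calcium release and prostaglandin synthesis. Of 32 listed genes, 26 were tested, with 14 lower, 8 higher and 4 not called, and a median log2 fold change of -0.37. With the length trend removed, 9 were lower. Gnai3, an inhibitory G protein subunit, fell from 114 to 45.1 CPM (-1.33), and Il6, a cytokine that kinins induce, fell from 51.7 to 27.5 CPM (-0.91). Ptgs2, the inducible cyclooxygenase, fell from 637 to 353 CPM (-0.85), with a smallest size of -0.28 over the 10 alternative settings. Ptgs1, the other cyclooxygenase, rose from 23.3 to 50.7 CPM (1.12). Itpr3, a calcium channel of the endoplasmic reticulum, rose from 95.4 to 192 CPM (1.01, or 2.02 with the length trend removed), and Mapk3, or ERK1, rose from 419 to 772 CPM (0.88). The chemokine gene Cxcl1 was at 2738 and 3673 CPM (0.42), but its log2 fold change was -0.0032 with the length trend removed.

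Among 44 genes of peptides that the surface peptidases cleave and of the receptors of these peptides, 25 had a count and 13 were tested. Of these, 10 were lower and 3 higher, with a median log2 fold change of -0.67. Over all genes tested, 38.8% were lower and 36.9% higher, with a median of -0.04. Ednrb, the endothelin B receptor, fell from 118 to 20.0 CPM (-2.56), Cxcl12, a chemokine, fell from 826 to 251 CPM (-1.72, or -1.004 with the length trend removed), and Npr2, the receptor of C-type natriuretic peptide, fell from 182 to 78.4 CPM (-1.21). Penk, the enkephalin precursor, rose from 235 to 319 CPM (0.44), and Ackr3, a scavenger receptor of Cxcl12, rose from 269 to 368 CPM (0.45). Ramp2, a subunit of adrenomedullin receptors, rose from 2.69 to 5.71 CPM (1.08). Adrenomedullin itself (Adm) fell from 28.5 to 4.83 CPM (-2.56), and Calcrl, the receptor that Ramp subunits join, fell from 7.69 to 1.34 CPM (-2.52). Ramp3, a more abundant subunit, fell from 116 to 91.5 CPM (-0.35). Ramp1, with 7 pooled counts in control cells and 25 in FNDC5 cells, was not tested. Edn1, the endothelin precursor, had the lowest fitted value of the list and was picked out for it. Its counts were 24, 21 and 27 in control cells and 1, 0 and 0 in FNDC5 cells, a ratio of 53.7 with an exact 95% counting interval of 9.33 to 2149.

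The renin-angiotensin list of 17 genes gave 6 tested genes, of which 2 were lower, 2 were higher and 2 were not called. Atp6ap2, the prorenin receptor, fell from 35.9 to 20.5 CPM (-0.81), and Apln, the apelin precursor, fell from 23.7 to 14.8 CPM (-0.68). Agtrap, an angiotensin receptor-associated protein, was at 91.3 and 102 CPM (0.16) and Ctsd, cathepsin D, at 1457 and 1750 CPM (0.26), and both turned to the other direction with library size only (-0.21 and -0.11). None of the 6 was past the fold threshold in either direction under edgeR with TMM. Of the angiotensin receptors, Agtr1a had 4 counts over the control libraries and 0 over those of FNDC5 cells and was not tested, and Agtr1b, Agtr2 and Mas1 had 0 counts in every library.

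**Figure D4:**
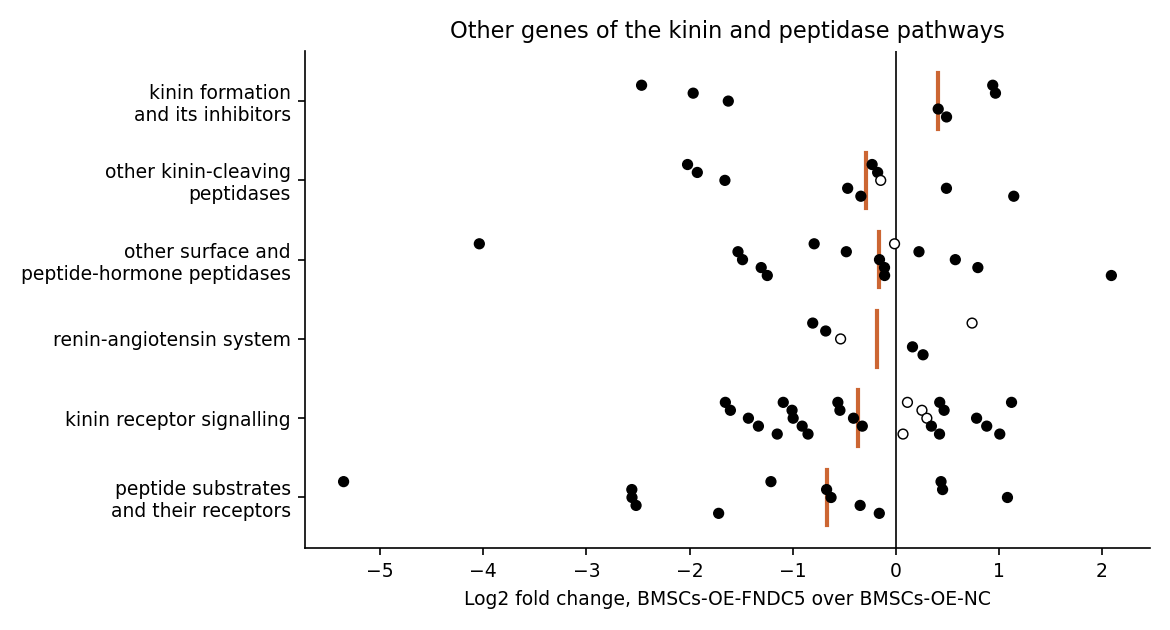
Log2 fold change (above 0 where FNDC5 cells were higher) of each tested gene in the 6 lists of related genes, with 1 point per gene, filled where the adjusted p was under 0.05 and open where it was not, and an orange bar at the median of the list. The medians run from -0.67 for peptide substrates and their receptors to 0.41 for kinin formation, and every list has genes on both sides of 0. The median over all genes tested was -0.04, with 75.7% of them called.

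Genes with a pattern like that of Kng1 were sought among tested genes with a gene symbol. The measure was the root mean square difference of mean-centred log2 CPM over the 6 libraries. The nearest were Hp (haptoglobin, 0.315), Mcc (0.494) and Itga8 (integrin subunit alpha 8, 0.503). Hp was at 174 CPM in control cells and 8.05 CPM in FNDC5 cells, whereas Mcc had 3 counts in every FNDC5 library and Itga8 had 3 or 4. For Mme the nearest were Cp (ceruloplasmin, 0.0632), Tnfrsf11b (osteoprotegerin, 0.0740) and Galnt3 (0.0825). Cp was at 614 and 45.8 CPM and Tnfrsf11b at 22.1 and 1.49 CPM, while Galnt3 had 62 to 71 counts in control cells and 2 in each FNDC5 library. The falls were not of equal size, with log2 fold changes of -4.43 for Hp, -4.66 for Mcc, -4.50 for Itga8, -3.74 for Cp, -3.88 for Tnfrsf11b and -4.58 for Galnt3. The log2 CPM of the measure carried edgeR's default prior count, which raises low levels. For Mcc, Itga8 and Galnt3, with few counts in FNDC5 cells, the difference therefore depends on that prior count. A large fall between the groups is part of the measure, and the choice of Kng1 and Mme had fixed it.

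The label of the cells was checked against marker genes, since in bulk RNA fewer cells of a type and less RNA per cell cannot be told apart. Of 16 mesenchymal stromal markers, 15 had counts, at a sum of 11022 to 11491 CPM in control cells and 11858 to 12327 CPM in FNDC5 cells. Single markers differed, with 5 higher and 8 lower of 14 tested, and the sum hides shifts among its largest genes. Vim rose from 3302 to 6321 CPM, while Col1a1 fell from 2835 to 2232 CPM and Pdgfrb from 1332 to 435 CPM. Thy1 was at 126 and 308 CPM, Pdgfra at 423 and 116 CPM and Nt5e, another surface enzyme of these cells, at 20.6 and 8.32 CPM. Leukocyte markers summed to 98.9 to 104 CPM in control cells and 199 to 207 CPM in FNDC5 cells, nearly all of it Cd14, and Ptprc, Adgre1, Aif1, Cd163, Ms4a1 and Mpo had 0 counts. Kng1 and Hp are known as liver products, and of 10 hepatocyte markers Alb, Apoa2, Ttr, Fga, Fgb and Fgg had 0 counts in all libraries, while Tf was at 125 and 183 CPM. The endothelial markers Cdh5, Kdr, Cldn5, Erg, Tie1 and Emcn and the epithelial markers Epcam, Cdh1, Krt18, Krt5, Krt14 and Krt19 also had 0 counts. Their sums, mostly Egfl7 and Krt8, were 51.8 to 55.3 and 1.52 to 2.02 CPM in control cells and 90.6 to 94.0 and 2.66 to 4.31 CPM in FNDC5 cells. The part of these markers in the values of the kinin and peptidase genes was not tested.

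Anpep, Enpep and Ace were lower and Bdkrb1 and Bdkrb2 higher under all 16 alternative analyses, 10 with other settings and 6 with 1 library left out. The log2 fold change of Kng1 ran from -5.46 to -3.62 over the 10 settings, with the smallest size on the log2(FPKM + 1) scale, which understates changes of low levels. That of Mme ran from -4.20 to -3.27, that of Enpep from -2.60 to -1.75, and that of Bdkrb1 from 1.28 to 1.68. Leaving out a library moved Kng1 between -5.14 and -5.05 and Mme between -3.87 and -3.81.

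**Figure D5:**
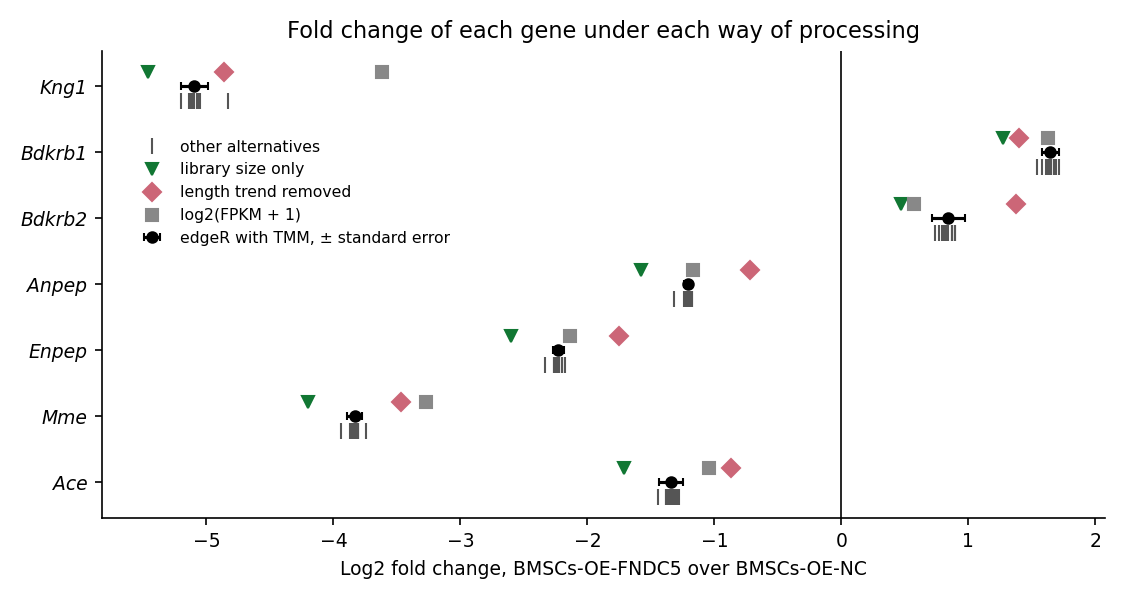
Log2 fold change (above 0 where FNDC5 cells were higher) of each of the 7 genes from edgeR with TMM scaling (black) and under the 16 alternatives (other symbols and ticks). The black error bars are standard errors derived from the test statistic, and for Kng1 and Mme they are smaller than counting error. No gene crosses 0 under any of them, Kng1 spreads most, from -5.46 to -3.62, and Anpep, Ace and Bdkrb2 lie on either side of an absolute value of 1.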

How the data were processed

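RNA-seq of 3 BMSCs-OE-FNDC5 and 3 BMSCs-OE-NC libraries was analysed from the deposited tables. The authors deposited gene counts, which are whole numbers, and FPKM values, which equal the count divided by gene length and by 1 constant per library. The tools named in the submitters' processing notes are HTSeq 0.6.0, the aligners HISAT2 2.1.0, Bowtie2 2.2.3 and TopHat2, and also CASAVA and DESeq2, and the step of each and the strand setting are not given there. Their build is mm10, a mouse build, and the extraction text speaks of retinas, although rows carry rat Ensembl identifiers and the source is bone marrow.

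Counts were filtered (filterByExpr, minimum count 10, minimum total 15), scaled by TMM and compared with edgeR 4.0.16 (R 4.3.3) by the quasi-likelihood test with group as the only term, and p-values were adjusted over all 12104 genes by Benjamini-Hochberg. Each standard error is the size of the log2 fold change divided by the square root of the test's F statistic. It rescales that statistic and can be smaller than counting error where few counts remain, as for Kng1, Mme and Lvrn. The edgeR step was run on simulated counts in which few genes differed, unlike these data, so that this run does not check the scaling used here. Alternatives were DESeq2 1.42.0, RLE, upper-quartile and library-size scaling, no filter, at least 10 counts in every library, a replicate block, limma 3.58.1 on log2(FPKM + 1) and log2(FPKM + 0.1), removal of the length trend (lowess, span 0.3), and each library left out. The 8 genes and all lists were chosen with earlier results of these data known. Genes named were the 8, all kinin formation genes with a count, in each other list up to 3 per direction with the smallest p among those called, 3 genes most like Kng1 and Mme each, and Fndc5. T-kininogen rows, Edn1, Adm, Calcrl, Ramp1, Ramp3, Ptgs1 and the marker values were added after values were seen. Sequences came from RefSeq tables, and no protein sequence was used.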

Additional observations from a re-analysis of the deposited data

How the results depend on the processing

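Anpep, Enpep and Ace were called lower and Bdkrb1 and Bdkrb2 higher under all 16 alternatives, with 3730 to 6709 lower and 2659 to 4925 higher calls over all genes. Kng1 and Mme were chosen for their falls and are not counted here. The adjusted p of Bdkrb2 ran from 7.38e-07 to 0.00686, that of Bdkrb1 from 1.79e-105 to 5.70e-07 and that of Ace from 4.86e-24 to 1.08e-05 over them. Relative to TMM, the median over all genes moved by -0.37 on the log2 scale with library size only, by -0.10 with upper-quartile scaling and by 0.13 on removal of the length trend. With library size only, 2659 genes were higher (4469 with TMM), 483 were higher and 3338 lower past the fold threshold (1191 and 2124), and in the renin-angiotensin list 0 were higher and 4 lower (2 and 2). Upper-quartile scaling left 1 gene higher in that list. On the log2(FPKM + 1) scale 706 genes were lower past the fold threshold, and with the length trend removed 1348. In that last fit, 5 genes listed as other kinin-cleaving peptidases were higher and 3 lower (2 and 7), and 9 kinin signalling genes were lower (14). The cause was not tested.

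Of 34 tested list genes named by the rules above, 30 kept their direction and call under every alternative. Genes added after values were seen are not counted. The exceptions were Prcp (0.04 with library size only), Agtrap (0.06 with upper-quartile scaling and -0.21 with library size only), Ctsd (-0.11 with library size only) and Cxcl1 (-0.0032 with the length trend removed). The log2 ratio of Bdkrb1 to Bdkrb2 differed by 0.74 to 0.89 when 1 library was left out (exact permutation p = 0.2, the smallest possible). In comparisons of the fitted values chosen after seeing the data, it differed by 0.022 with the length trend removed and by 1.06 on the log2(FPKM + 1) scale. On that last scale Lvrn was at -2.29 and Hsp90aa1 at -1.50. Over the 10 settings the smallest sizes were -0.33 for Apln, -0.70 for Npr2 and -1.02 for Dpp8, against -0.68, -1.21 and -1.49 with TMM.

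The labels tie libraries of the same number to no shared source, the correlations of their deviations were 0.02, -0.01 and -0.01, and they were not treated as pairs. With a replicate block, 4399 genes were higher and 4628 lower, and the 5 genes of the set besides Kng1 and Mme had the same calls. The residual levels of Kng1 (62 counts), Edn1 and the T-kininogen row (1 count each) limit how finely their falls are known.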
